A study of Mus musculus with 54 samples.

Results

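The 8 genes Glul, Slc1a2, Rhbg, Axin2, Lgr5, Rnf43, Znrf3 and Tbx3 are hepatocyte genes held on around the central vein by Wnt signalling. They were taken by name from the 24346 gene symbols of a whole-liver RNA sequencing table, and all 8 were among the 10932 genes tested. The study collected mouse livers every 4 h over 24 h (ZT0 to ZT20, in hours after lights on) in 3 genotypes, with 3 livers in each of 18 groups and 54 libraries in all. WT mice expressed the core clock gene Bmal1 everywhere. KO mice carried a floxed STOP in Bmal1, which knocks the gene out. RE mice carried the same floxed STOP together with Syt10-Cre, which gives Bmal1 back to the suprachiasmatic nucleus, the master clock of the brain. The rescue is therefore only as local as the Syt10-Cre driver, and no age, sex or feeding schedule is given in the labels. The labels do not say that the livers of a group came from separate animals, so p-values measure the spread between these samples only.

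Wnt ligands bind Frizzled receptors with LRP5 or LRP6 at the cell surface and stop the destruction of beta-catenin, which then enters the nucleus and switches on target genes together with TCF factors. In the liver, endothelial cells of the central vein release Wnt and R-spondin proteins, so hepatocytes beside that vein have the strongest signal. Those cells make glutamine from ammonia that escaped the urea cycle upstream, while periportal hepatocytes run the urea cycle itself. Several Wnt targets act back on the pathway: some dampen it, and R-spondin receptors boost it.

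In mouse assembly GRCm38.p6 of RefSeq, the protein-coding gene Glul lies on chromosome 1 at 153899929 to 153909723 and Slc1a2 on chromosome 2 at 102658239 to 102790784. Rhbg lies on chromosome 3 at 88242874 to 88254739, Tbx3 on chromosome 5 at 119670534 to 119684724 and Lgr5 on chromosome 10 at 115450314 to 115587780. Chromosome 11 holds Znrf3 at 5276329 to 5444847, Rnf43 at 87663087 to 87735539 and Axin2 at 108917828 to 108950783. The deposited values are 1 per gene and do not separate exons or isoforms.

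RefSeq promoter windows of this assembly, 250 bases before to 50 bases after a start site, were found for 4 of the 8 genes. They are shown for the 3 genes whose level differed from WT, so that the letters beta-catenin's TCF partners and clock-linked factors are known to bind can be looked for. Capitals mark CTTTGA (the core bound by TCF factors, TCAAAG on the other strand) and AGGTCA (the half-site of nuclear receptors such as REV-ERB and ROR, TGACCT on the other strand). The windows lie on the + strand at chr2:102706188-102706487 (Slc1a2), chr1:153899679-153899978 (Glul) and chr11:108920099-108920398 (Axin2). The Glul window is at the start of its RefSeq gene, while those of Slc1a2 and Axin2 surround start sites inside the gene span given above.
Slc1a2: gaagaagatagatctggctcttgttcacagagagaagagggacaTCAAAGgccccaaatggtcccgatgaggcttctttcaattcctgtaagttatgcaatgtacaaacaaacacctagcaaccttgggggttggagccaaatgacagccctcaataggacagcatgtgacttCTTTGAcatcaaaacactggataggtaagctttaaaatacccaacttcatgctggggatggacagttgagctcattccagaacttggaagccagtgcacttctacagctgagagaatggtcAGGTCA
Glul: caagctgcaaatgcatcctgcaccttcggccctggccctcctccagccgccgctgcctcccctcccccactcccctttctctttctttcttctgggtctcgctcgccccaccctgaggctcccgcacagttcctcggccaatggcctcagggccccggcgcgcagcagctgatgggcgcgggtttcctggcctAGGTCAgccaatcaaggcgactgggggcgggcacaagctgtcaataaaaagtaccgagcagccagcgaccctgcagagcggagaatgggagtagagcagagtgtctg
Axin2: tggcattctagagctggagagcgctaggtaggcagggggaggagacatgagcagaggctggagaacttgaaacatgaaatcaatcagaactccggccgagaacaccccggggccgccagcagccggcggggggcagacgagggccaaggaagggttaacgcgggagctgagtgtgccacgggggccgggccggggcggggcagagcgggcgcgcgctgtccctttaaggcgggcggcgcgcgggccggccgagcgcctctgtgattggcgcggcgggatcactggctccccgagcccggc
The Slc1a2 window held CTTTGA at 2 places and AGGTCA once, at its end. Glul held AGGTCA once and no CTTTGA, and the Axin2 window held neither. CTTTGA stood in 16.0% and AGGTCA in 16.3% of all 32851 promoter windows, counted on both strands, and no 2 matches shown overlap. CACGTG, the E-box that BMAL1 binds with CLOCK, stood in 7.15% of windows and in none of the 5 windows of these genes. A match is a description of letters only, and an absent match concerns this window only.

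The libraries had total FPKM (fragments scaled to transcript length and to the mapped fragments of a library) of 572995 to 751399, with 14654 to 15810 genes above 0. Hepatocyte genes were abundant throughout, with Apoa1 at a mean of 14374 FPKM in WT livers, 12018 in KO livers and 14781 in RE livers. Alb, which every hepatocyte makes, was listed at 0 in all 18 WT livers, 1 KO liver and 2 RE livers, and it was one of 4 genes at 0 throughout WT whose KO mean was at least 10 FPKM. Whether WT libraries were processed apart from the others is not given, so its part in differences from WT was not tested. Arntl, which encodes BMAL1, ranged from 0.202 to 10.3 FPKM in WT, 9.76 to 14.2 in KO and 7.60 to 15.5 in RE; these values cover the whole gene and do not check the STOP. Nr1d1, a direct BMAL1 target, had medians of 7.12 (WT), 0.829 (KO) and 0.859 FPKM (RE), and its highest KO and RE livers (1.48 and 1.72) were far below the highest WT liver (51.8). One library stood apart: RE ZT16 liver 2 had Alb at 0, the highest Ttr of all RE livers (12864 FPKM, beside an RE median of 6731; Ttr encodes a secreted hepatocyte protein) and the lowest Cyp1a2 (129 FPKM). Of the RE livers it also had the highest summed pancreas (22.7 FPKM, 8 markers), stellate cell (129 FPKM, 8 markers), periportal (7015 FPKM, 12 genes) and hepatocyte markers (29328 FPKM, 5 markers without Alb). These sums do not stand for every gene: the periportal gene Cyp2f2 was at 419 FPKM there, the lowest of all libraries. Apoa1 in RE ZT16 liver 2, at 14252 FPKM, was near the RE mean. Results that rest on this library are given with and without it, and the part of these differences in its values was not tested.

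Glul was by far the most abundant of these genes. Glul averaged 369 ± 85.2 FPKM (SD, n = 54), Slc1a2 20.6 ± 7.93 and Rhbg 9.69 ± 3.45. Tbx3 averaged 5.68 ± 2.01 FPKM and Rnf43 4.94 ± 1.47, and Tbx3 was the higher of the pair in 34 of 54 livers. Axin2 (1.70 ± 0.556 FPKM), Lgr5 (1.35 ± 0.504) and Znrf3 (1.33 ± 0.287) stood at the bottom, and neighbours among these 3 overlapped: Axin2 exceeded Lgr5 in 36 livers and Lgr5 exceeded Znrf3 in 25. FPKM is scaled to length, so the genes can be compared on this scale. For the lowest 3, log2(FPKM + 1), the scale of every test, understates fold changes.

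**Figure D1:**
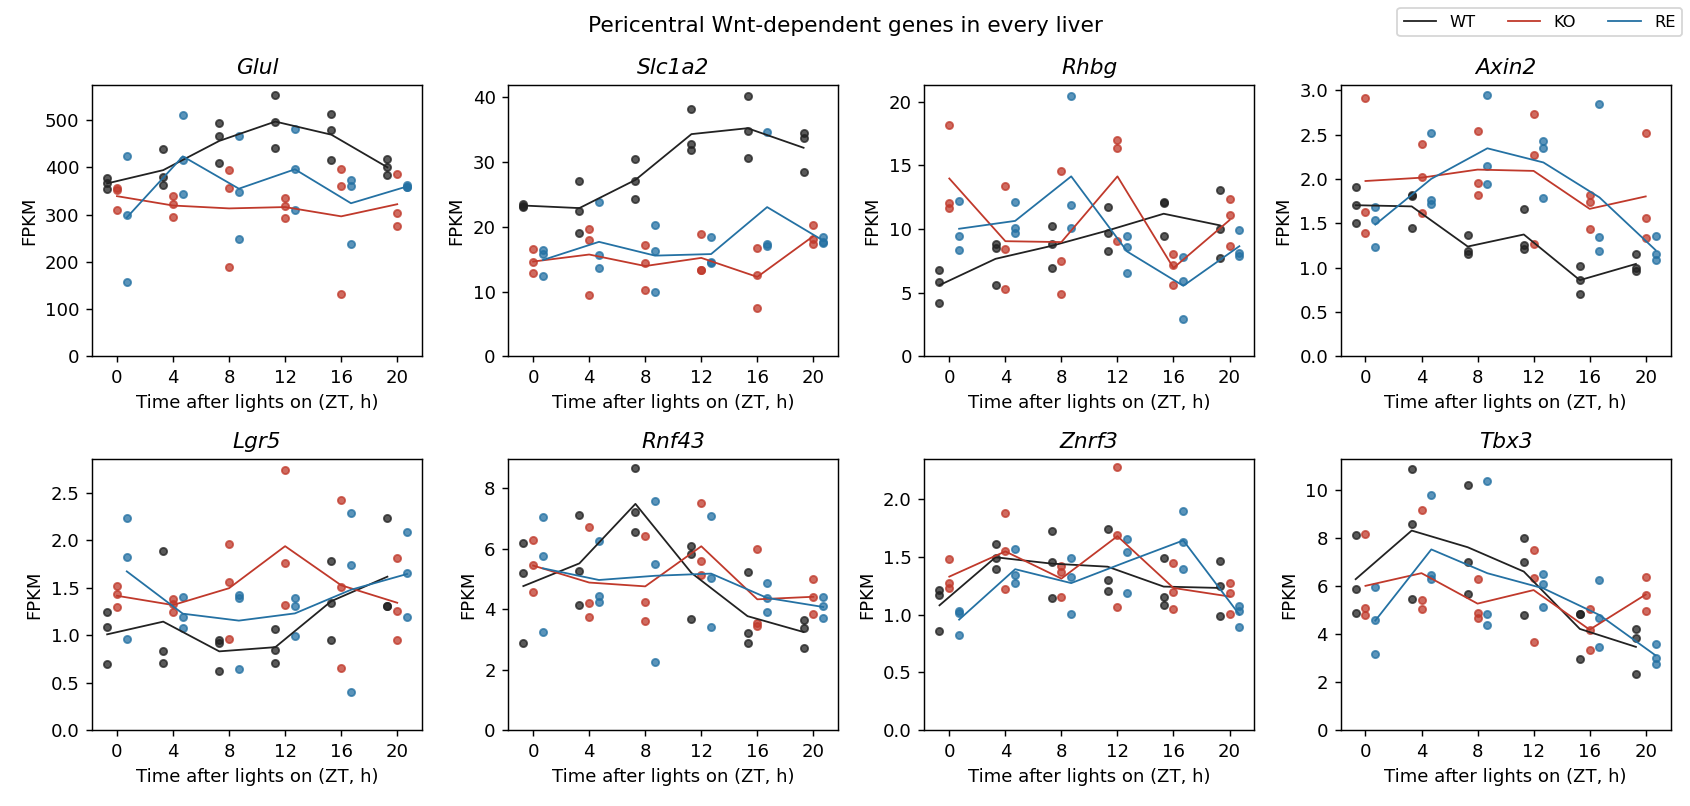
FPKM of each of the 8 genes (y axes from 0) against time of day (x axis, ZT in hours), with 1 point per liver, lines through the means of 3 livers, and WT, KO and RE in black, red and blue with a small horizontal offset. Slc1a2 in WT lies above nearly all KO and RE points of the same time, the Axin2 mean is lowest in WT from ZT8 onward, and Rhbg is low at ZT0 and high at ZT16 in WT but lowest at ZT16 in RE.

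Slc1a2 and Glul, which supply and run glutamine synthesis, were lower in both mutant genotypes, and Axin2, a brake on the pathway, was higher. These 3 of 8 genes were called (adjusted p under 0.05, limma with Benjamini-Hochberg adjustment over all 10932 genes) between KO and WT, and the same 3 between RE and WT. Of all genes tested, 42.3% were called between KO and WT (22.1% higher, 20.2% lower) and 45.9% between RE and WT (24.2% higher, 21.7% lower), so the share of the 8 was near the background. The 8 genes did not move as a block: their median level difference was 0.03 (log2) in KO and -0.02 in RE, beside 0.00 and 0.01 over all genes. None of the 8 was called between RE and KO, where 0.192% of all genes were, and none had an unadjusted p under 0.05 there. Fewer cells of a type and less RNA per cell cannot be told apart in these bulk samples. For some genes below, times are named at which all KO or RE livers lay above or below all WT livers. Every time was searched for this, so these separations are a description and no test. How many of all genes separate between genotypes like this was not computed.

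Slc1a2 encodes the glutamate transporter GLT-1, which loads pericentral hepatocytes with glutamate. Its FPKM was 19.05 at the lowest, 29.4 at the median and 40.2 at the highest in WT, against 7.47, 15.5 and 20.3 in KO and 10.02, 16.8 and 34.6 in RE. At 5 of 6 times every KO liver was below every WT liver, the exception being ZT4. RE livers were all below WT at ZT0, ZT8, ZT12 and ZT20. At ZT16 the RE livers had 17.4, 17.1 and 34.6 FPKM, beside 40.2, 34.7 and 30.6 in WT, so a single RE liver, RE ZT16 liver 2, reached the WT range. The level was 1.90-fold lower in KO (log2 difference -0.92, SE 0.10, limma adjusted p = 6.26e-10) and 1.65-fold lower in RE (-0.73, SE 0.10, adjusted p = 1.35e-07) on the log2(FPKM + 1) scale. Without RE ZT16 liver 2 the RE difference from WT was -0.78 (adjusted p = 8.30e-09). Between RE and KO the difference was 0.20 with a 95% interval of -0.01 to 0.40, and 0.14 (adjusted p = 0.502) without that liver.

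Glul encodes glutamine synthetase, which joins ammonia to glutamate and is the classic label of the hepatocytes next to the central vein. FPKM was 354 at the lowest, 416 at the median and 553 at the highest in WT, 131, 329 and 397 in KO, and 158, 359.8 and 511 in RE. KO livers were all below WT livers at ZT4, ZT8, ZT12 and ZT16, and RE livers at ZT16 and ZT20. At ZT16, for example, WT had 513, 416 and 478 FPKM, KO had 397, 361 and 131, and RE had 361, 373 and 238. The difference was -0.47 for KO (SE 0.12, limma adjusted p = 0.00108) and -0.30 for RE (SE 0.12, adjusted p = 0.0318). The RE call ended without any 1 of RE ZT0 liver 2 (adjusted p = 0.0712), RE ZT8 liver 1 (0.0628), RE ZT16 liver 2 (0.0573), RE ZT12 liver 0 (0.0560) or RE ZT4 liver 1 (0.0539). RE minus KO was 0.17 with a 95% interval of -0.07 to 0.40.

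The lowest Glul values came from a few livers that were also low in Slc1a2 and Cyp1a2. KO ZT16 liver 2, RE ZT0 liver 2 and KO ZT8 liver 2 had 131, 158 and 189 FPKM of Glul, and the next lowest liver had 238. Cyp1a2, a pericentral drug-metabolising enzyme, was at 159, 279 and 255 FPKM in these livers, beside a median of 468 in KO and 461 in RE. Slc1a2 was at 7.47, 12.3 and 10.3 FPKM there. Oat, a pericentral enzyme of ornithine breakdown, was at 597, 919 and 604 FPKM, beside medians of 779.8 in KO and 771 in RE, so in RE ZT0 liver 2 it was above the median. Of the KO livers, KO ZT16 liver 2 had the highest summed bile duct (172 FPKM, 6 markers), stellate cell (103 FPKM, 8 markers) and muscle and fat markers (41.3 FPKM, 6 markers), and KO ZT8 liver 2 the highest summed periportal genes (6548 FPKM, 12 genes). The next lowest Glul liver, at 238 FPKM, was RE ZT16 liver 2. It was low in Cyp1a2 (129 FPKM) but had the highest Slc1a2 of the RE livers (34.6 FPKM). What set these livers apart was not tested. Glul stayed lower in KO than in WT without any 1 liver, with a limma adjusted p of at most 0.00258 (without KO ZT8 liver 2).

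Rhbg, an ammonium channel of the hepatocyte surface, showed no called difference of level. Its FPKM was 4.21, 8.85 and 13.1 (lowest, median, highest) in WT, 4.89, 10.1 and 18.2 in KO and 2.94, 9.47 and 20.4 in RE, so the genotypes overlapped. The intervals of the log2 difference ran from -0.05 to 0.44 for KO and from -0.18 to 0.31 for RE.

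Axin2 encodes a scaffold of the beta-catenin destruction complex and is a widely used read-out of Wnt signalling. Livers had 0.701, 1.23 and 1.91 FPKM (lowest, median, highest) in WT, 1.27, 1.82 and 2.91 in KO, and 1.08, 1.74 and 2.95 in RE. KO livers were all above WT at ZT8, ZT16 and ZT20 and RE livers at ZT8, ZT12 and ZT16. At ZT16, WT livers had 1.02, 0.857 and 0.701 FPKM, against 1.82, 1.44 and 1.74 in KO and 2.85, 1.19 and 1.34 in RE. Axin2 was higher by 0.34 (log2, SE 0.07, limma adjusted p = 0.000175) in KO and by 0.28 (SE 0.07, adjusted p = 0.00159) in RE. With a pseudocount of 0.1 FPKM in place of 1 these differences were 0.53 and 0.43. Axin2 thus moved opposite to Slc1a2 and Glul, in the same libraries and in both genotypes.

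Lgr5 encodes an R-spondin receptor, which strengthens the signal. Its FPKM was 0.626, 1.01 and 2.24 (lowest, median, highest) in WT, 0.651, 1.41 and 2.74 in KO, and 0.407, 1.39 and 2.29 in RE. KO livers were all above WT at ZT0, ZT8 and ZT12, but the difference of 0.23 (SE 0.10) had a limma adjusted p of 0.0609 and was not called. It was called when any 1 of 8 livers was left out, with the lowest adjusted p (0.0194) without KO ZT16 liver 2; the others were WT ZT4 liver 1, WT ZT16 liver 0, WT ZT20 liver 2, KO ZT8 liver 2, KO ZT12 liver 2, KO ZT20 liver 1 and RE ZT16 liver 0. RE minus WT was 0.16 (adjusted p = 0.187), and it was called without RE ZT16 liver 0 (adjusted p = 0.0432). With KO and WT compared alone, KO minus WT was called (limma adjusted p = 0.0397).

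Rnf43 and Znrf3 encode paired ubiquitin ligases that remove Frizzled receptors from the membrane, and R-spondins act by blocking them. Rnf43 had a median of 5.21 FPKM in WT (2.70 to 8.66), 4.78 in KO (3.44 to 7.50) and 4.42 in RE (2.26 to 7.56). Znrf3 had a median of 1.27 FPKM in WT (0.857 to 1.74), 1.28 in KO (1.01 to 2.28) and 1.30 in RE (0.826 to 1.90). Neither differed in level by the test, with 95% intervals of -0.07 to 0.13 (KO) and -0.12 to 0.08 (RE) for Znrf3 and of -0.20 to 0.25 and -0.25 to 0.21 for Rnf43.

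Tbx3 encodes a T-box transcription factor, mostly a repressor, and a beta-catenin target in liver. It had 2.33, 5.55 and 10.9 FPKM (lowest, median, highest) in WT, 3.34, 5.06 and 9.13 in KO and 2.76, 4.97 and 10.4 in RE. The groups overlapped, and the level differences were -0.06 in KO (interval -0.29 to 0.16) and -0.14 in RE (-0.36 to 0.09).

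**Figure D2:**
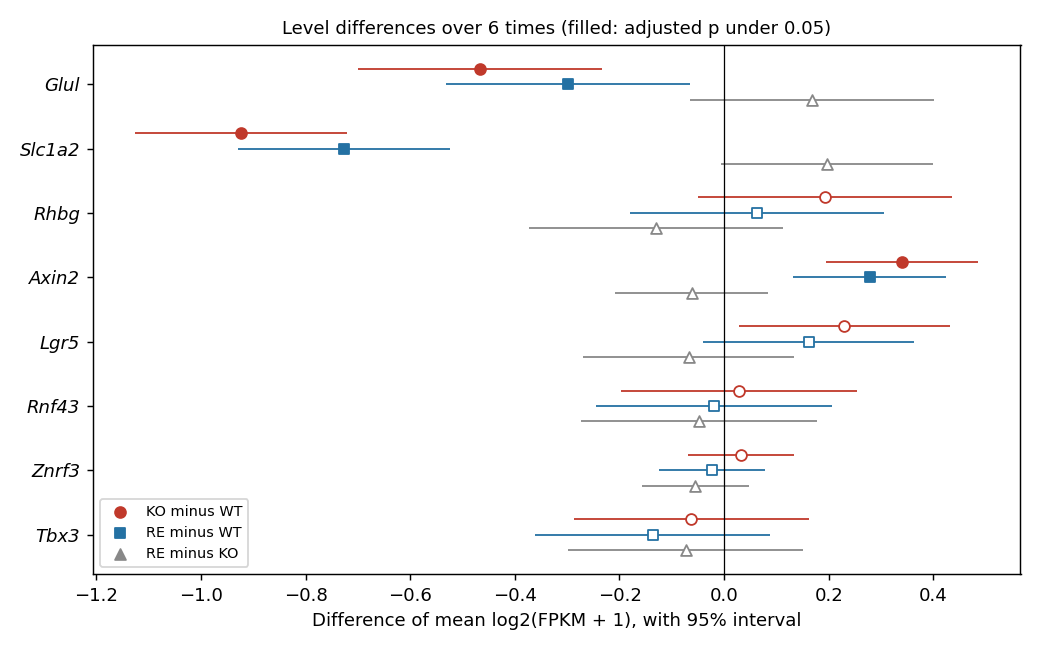
Difference of mean log2(FPKM + 1) over the 6 times (x axis) for each gene (y axis), with 95% intervals from limma; circles are KO minus WT, squares RE minus WT and triangles RE minus KO, filled where the adjusted p is under 0.05. Slc1a2 (-0.92 and -0.73) and Glul (-0.47 and -0.30) lie left of 0, Axin2 (0.34 and 0.28) lies right of it, and every triangle is open.

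Daily rhythms were fitted as a 24 h cosine, whose amplitude is given from mean to peak in log2. In WT, Tbx3, Rnf43, Slc1a2 and Axin2 were called rhythmic, 4 of 8 genes beside 34.8% of all genes. No gene of the 8 was called in KO, where 0.0366% of all genes were, and none of the 8 had an unadjusted p under 0.05. In RE, 4 of 8 were called again, beside 46.8% of all genes, but these were Axin2, Rhbg, Tbx3 and Znrf3. Tbx3 and Axin2 were thus the pair called in both WT and RE. With each genotype fitted alone, which uses that genotype's own spread, 48.4% (WT) and 28.4% (RE) of all genes were called, so the order of the genotypes over all genes turned. In those fits the same 4 genes were called in RE, and Glul (adjusted p = 0.00204) and Rhbg (0.00916) joined the 4 in WT. The 8 genes had median amplitudes of 0.29 (WT), 0.10 (KO) and 0.17 (RE), beside 0.14, 0.08 and 0.16 over all genes. The times whose livers are printed below lie mostly at or near a genotype's highest and lowest means. Livers that stand apart at such times are therefore a description and no test. The share of all genes that separate in this way was not computed. Overlap in another genotype at the same times does not show that its rhythm was lost.

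Tbx3 had the widest WT rhythm of the 8, with an amplitude of 0.51 (SE 0.11), a fitted peak at ZT6.31 and a limma adjusted p of 0.00173. WT livers had 8.58, 5.45 and 10.9 FPKM at ZT4 and 4.21, 2.33 and 3.84 at ZT20, so the 2 times did not overlap. RE livers had 9.79, 6.29 and 6.46 FPKM at ZT4 and 2.99, 3.58 and 2.76 at ZT20, again apart. The RE amplitude was 0.42 with a peak at ZT7.41 (adjusted p = 0.00809), and this call ended without RE ZT8 liver 1 (adjusted p = 0.0657). KO livers had 5.41, 9.13 and 5.03 FPKM at ZT4 and 4.96, 6.35 and 5.60 at ZT20, and overlapped.

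Rnf43 peaked close to Tbx3 in WT, at ZT7.17, with an amplitude of 0.44 (SE 0.11, limma adjusted p = 0.00733). WT livers had 8.66, 6.56 and 7.23 FPKM at ZT8 and 3.64, 2.70 and 3.39 at ZT20, the times of the highest and lowest WT means. At these times, which are the extremes of WT and not of RE, the RE livers overlapped. They had 7.56, 5.49 and 2.26 FPKM at ZT8 and 4.42, 3.71 and 4.09 at ZT20. The RE amplitude was 0.09 (adjusted p = 0.792), yet the RE minus WT difference of rhythm, 0.36 (SE 0.16), was not called (adjusted p = 0.236).

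Slc1a2 peaked at night in WT, at ZT15.0, with an amplitude of 0.34 (SE 0.10, limma adjusted p = 0.0233). WT livers had 23.6, 23.0 and 23.3 FPKM at ZT0 and 40.2, 34.7 and 30.6 at ZT16. The call ended without WT ZT4 liver 0 (adjusted p = 0.0770) or WT ZT16 liver 0 (0.0691). In KO the livers had 12.8, 14.6 and 16.5 FPKM at ZT0 and 16.7, 12.6 and 7.47 at ZT16, overlapping. The KO amplitude was 0.11 (adjusted p = 0.839) and the RE amplitude 0.17 (adjusted p = 0.337). In FPKM the gap between KO and WT means was widest at ZT16, where KO had 12.3 ± 4.6 against 35.2 ± 4.8 in WT (SD, n = 3). The KO minus WT difference of rhythm was 0.42 (adjusted p = 0.128), not called with all livers and called without KO ZT4 liver 2 (adjusted p = 0.0348).

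Axin2 fell from the morning to the night in WT, with an amplitude of 0.23 (SE 0.07), a peak at ZT3.73 and a limma adjusted p of 0.0327. WT livers had 1.91, 1.504 and 1.70 FPKM at ZT0 and 1.02, 0.857 and 0.701 at ZT16. That call ended without any 1 of WT ZT16 liver 2 (adjusted p = 0.0903), WT ZT4 liver 0 (0.0770), WT ZT4 liver 2 (0.0736), WT ZT16 liver 1 (0.0605), WT ZT0 liver 0 (0.0530) or WT ZT12 liver 2 (0.0520). In RE the peak was at ZT8.83 with an amplitude of 0.29 (SE 0.07, adjusted p = 0.00489). RE livers had 1.94, 2.95 and 2.15 FPKM at ZT8 and 1.36, 1.08 and 1.16 at ZT20, apart from each other. The difference between the RE and WT rhythms was 0.33 (SE 0.10, adjusted p = 0.0660); it was called without KO ZT0 liver 1 (0.0457), KO ZT12 liver 1 (0.0462) or RE ZT16 liver 1 (0.0388).

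Rhbg was the only gene of the 8 whose rhythm differed by the test between genotypes. The RE minus WT difference had a size of 0.77 (the length of the difference of the fitted waves, log2; SE 0.17, limma adjusted p = 0.00542), beside 14.1% of all genes called in that comparison. In WT the livers had 6.76, 5.83 and 4.21 FPKM at ZT0 and 12.1, 9.45 and 12.0 at ZT16. In RE they had 9.46, 12.2 and 8.39 FPKM at ZT0, 20.4, 11.9 and 10.1 at ZT8 and 7.80, 5.90 and 2.94 at ZT16. Every RE liver was above every WT liver at ZT0 and ZT4 and below at ZT16. The fitted peak was at ZT14.4 in WT (amplitude 0.36, adjusted p = 0.0508, not called) and at ZT4.84 in RE (0.45, adjusted p = 0.00801). The RE rhythm was no longer called without RE ZT16 liver 2 (adjusted p = 0.0565), and the WT rhythm was called when any 1 of 13 livers was left out (lowest adjusted p 0.0320, without KO ZT8 liver 0; also WT ZT0 liver 0, WT ZT12 liver 2, WT ZT20 liver 2, KO ZT0 liver 2, KO ZT4 livers 0 and 2, KO ZT8 liver 2, KO ZT12 liver 0, RE ZT8 livers 0 and 2, and RE ZT16 livers 0 and 2). The difference of rhythm was called in each of the 54 fits that left out 1 liver, with a size of 0.66 (adjusted p = 0.0181) without RE ZT16 liver 2.

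In KO, no 24 h rhythm of Rhbg was called. Livers had 12.1, 11.7 and 18.2 FPKM at ZT0, 8.01, 7.19 and 5.64 at ZT16, and 9.05, 16.4 and 17.0 at ZT12. A test for any change among the 6 times gave an adjusted p of 0.360 (unadjusted 0.0159) there. KO amplitude was 0.10. No KO minus WT difference of rhythm was called among the 8, beside 9.06% of all genes, and 3 had an unadjusted p under 0.05. None was called between RE and KO, beside 3.07% of all genes, and 1 (Rhbg) had an unadjusted p under 0.05.

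Znrf3 was called rhythmic in RE alone, with an amplitude of 0.16 (SE 0.05), a peak at ZT11.7 and a limma adjusted p of 0.0250. RE livers had 1.03, 1.01 and 0.826 FPKM at ZT0 and 1.63, 1.40 and 1.90 at ZT16, apart from each other. The call ended without RE ZT12 liver 1 (adjusted p = 0.0792), RE ZT0 liver 2 (0.0732) or RE ZT12 liver 2 (0.0607), and the RE minus WT difference of rhythm was not called (0.12, adjusted p = 0.455). Glul and Lgr5 were called in no genotype in the fit of all livers. With WT fitted alone, Glul was called rhythmic (limma adjusted p = 0.00204). Glul had a WT amplitude of 0.22 (adjusted p = 0.290) with means between 366 FPKM at ZT0 and 497 at ZT12, and Lgr5 one of 0.21 (adjusted p = 0.214).

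A test for any difference among the 6 times, which needs no cosine shape, called Tbx3 alone in WT (adjusted p = 0.0142, beside 23.5% of all genes). It called none in KO (0.0457% of all genes) and Rhbg, Znrf3, Tbx3 and Axin2 in RE (39.3% of all genes; adjusted p = 0.0198, 0.0223, 0.0297 and 0.0388). The WT call for Tbx3 ended without WT ZT20 liver 1 (adjusted p = 0.0718). The RE calls ended without any 1 of 7 livers for Axin2 (highest adjusted p 0.101), 3 for Tbx3 (0.0867), 2 for Znrf3 (0.0664) and 2 for Rhbg (0.150, without RE ZT16 liver 2). With each genotype fitted alone none of these 4 RE calls remained (adjusted p of 0.0591 to 0.152), and 6 of the 8 were called in WT; over all genes the share was 40.2% (WT) and 10.6% (RE).

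**Figure D3:**
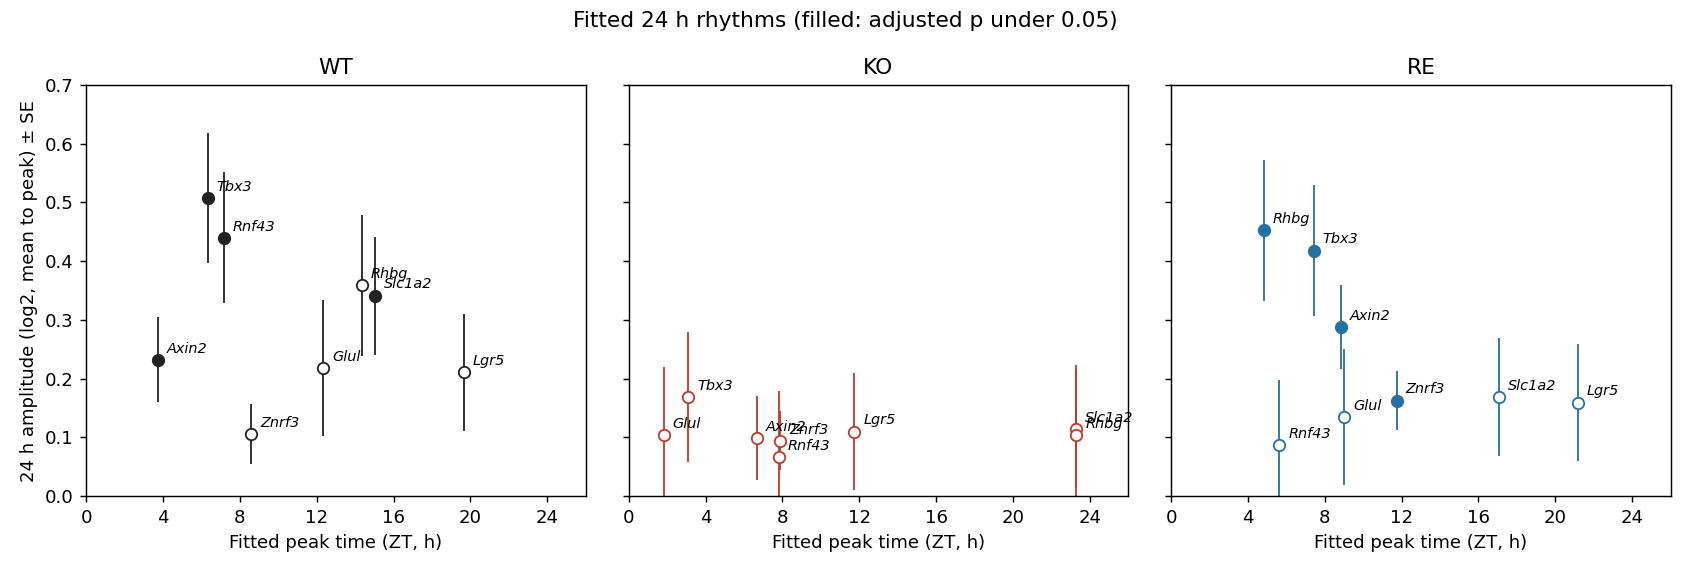
Fitted 24 h amplitude in log2 with its SE (y axis) against fitted peak time in ZT hours (x axis) for the 8 genes in WT, KO and RE, filled where the adjusted p is under 0.05. WT amplitudes spread up to 0.51, and every KO symbol is open and at most 0.17. The fitted Rhbg peak is at ZT14.4 in WT (open, rhythm not called) and at ZT4.84 in RE (filled).

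Livers of the same group also varied together for some of these genes. Pearson correlations of log2(FPKM + 1), after subtracting each group's mean, ranged over the 28 pairs from -0.31 (Axin2 with Lgr5) to 0.67 (Axin2 with Tbx3), with a median of 0.17 over 54 libraries. Glul went with Slc1a2 (0.54) and Rhbg (0.43), and Tbx3 went with Rnf43 (0.52). Glul and Axin2, which moved in opposite directions between genotypes, had a correlation of 0.03 within groups. Values of 1 library share its preparation and scaling, so these correlations are descriptions.

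**Figure D4:**
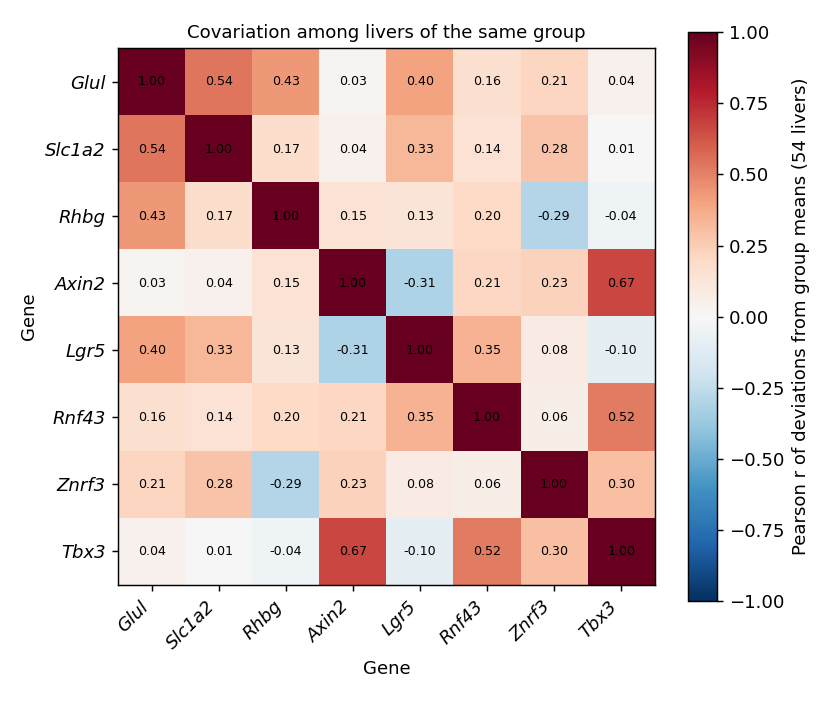
Pearson correlation (colour and printed value) between the 8 genes on both axes, computed over 54 livers from log2(FPKM + 1) after subtracting the mean of each genotype and time. Axin2 with Tbx3 (0.67), Glul with Slc1a2 (0.54) and Tbx3 with Rnf43 (0.52) are the highest pairs, and most other cells are pale.

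The genes most like each of the 8 were searched for in the same way among 10323 tested genes, with the 3 highest named. Those of Glul were Wisp1 (0.79), Cyp1a2 (0.76) and Gna14 (0.74), and those of Slc1a2 were Cyp2c37 (0.71), Jam2 (0.69) and Pon1 (0.68). For Axin2 and Tbx3 each was the other's closest gene (0.67); next came Gnl2 (0.63) and Gemin4 (0.58) for Axin2 and Urgcp and Snw1 (both 0.62) for Tbx3. Rhbg was followed by Rnpep (0.76), Shmt2 (0.75) and Frmd8 (0.74), and Lgr5 by Slc22a15 (0.74), Slc12a7 (0.71) and Lyst (0.70). Rnf43 was followed by Gse1 (0.76), Iffo2 (0.71) and Itga5 (0.66), and Znrf3 by Fbxo38 (0.77), Arfgef2 (0.76) and Ssfa2 (0.75). Each figure is the highest of many and carries no test.

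Around these 8 genes, 79 others of the Wnt pathway were listed in 6 groups, and 49 passed the filter. Of those, 24 were called between KO and WT (7 higher, 17 lower; 49.0% of them beside 42.3% of all genes) and 31 between RE and WT (8 higher, 23 lower; 63.3% beside 45.9%). The median differences of the 49 were -0.10 and -0.11. The 31 include Wif1, whose call is no result because it passed the filter through its higher groups alone. The lists were chosen with earlier results of these data known, so a share above that of all genes is no result either. None was called by limma between RE and KO (5 at an unadjusted p under 0.05). Most genes below are named by smallest adjusted p within each comparison. A value given for KO or RE alone therefore does not mark a difference between these genotypes. Rhythms were called for 17 in WT (34.7% of the 49, beside 34.8% of all genes), 0 in KO (11 at an unadjusted p under 0.05; 0.0366% of all genes) and 18 in RE (36.7% beside 46.8%).

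Among Wnt ligands and R-spondins, 3 of 11 could be tested, and the central-vein signals Wnt2 and Rspo3 were not called. Wnt2 averaged 1.31 ± 0.334 (WT), 1.51 ± 0.590 (KO) and 1.56 ± 0.527 FPKM (RE; SD, n = 18), and Rspo3 had 1.65 ± 0.321, 1.71 ± 0.333 and 1.83 ± 0.384. Wnt9b, the other central-vein Wnt, had means of at most 0.148 FPKM and was not tested. Wnt5b, a ligand better known for signalling without beta-catenin, was lower in KO (-0.47, limma adjusted p = 8.99e-05) and RE (-0.40, adjusted p = 0.000644). It had 4.06 FPKM at the median in WT, 2.67 in KO and 2.73 in RE, and its rhythm was called in WT (amplitude 0.53, peak ZT15.2, adjusted p = 0.000159).

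Of 10 receptors tested, 5 were called in KO (2 higher, 3 lower) and 6 in RE (2 higher, 4 lower), with medians of -0.07 and -0.14, beside 42.3% (KO) and 45.9% (RE) of all genes called. The co-receptor Lrp5 was higher in KO (0.68, SE 0.06, adjusted p = 6.98e-13) and RE (0.64, adjusted p = 3.33e-12), with 12.0, 19.2 and 18.8 FPKM on average in WT, KO and RE. Its partner Lrp6 was lower in KO (-0.21, adjusted p = 0.0132), and Ryk, a Wnt receptor outside the Frizzled family, was lower in both (-0.32 and -0.36). Lgr4, the R-spondin receptor that hepatocytes carry along the whole lobule, had means of 12.0, 11.3 and 11.3 FPKM and was not called.

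Of 16 genes of the destruction complex and signal transduction tested, 8 were called in KO (2 higher, 6 lower; median -0.11) and 9 in RE (2 higher, 7 lower; median -0.09), against a background of 42.3% (KO) and 45.9% (RE) of all genes. Ctnnb1, beta-catenin itself, had means of 63.8, 58.8 and 59.6 FPKM and was lower by small amounts, -0.12 in KO (limma adjusted p = 0.0143) and -0.10 in RE (adjusted p = 0.0295). The RE call for Ctnnb1 ended when any 1 of 5 RE livers was left out (livers 1 and 2 at RE ZT0, liver 0 at RE ZT4, liver 1 at RE ZT16 and liver 2 at RE ZT20). Porcn, which lipidates Wnts for release, was lower in KO (-0.41) and RE (-0.43), and the kinase gene Csnk1d was higher (0.17 and 0.13), while Csnk1e was lower in RE (-0.21). Dvl2, which relays the receptor's signal, was higher in KO (0.30).

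Of 8 TCF factors and coactivators tested, 5 were called in KO (1 higher, 4 lower; median -0.12) and 7 in RE (1 higher, 6 lower; median -0.22). The background was 42.3% (KO) and 45.9% (RE) of all genes. Ctnnbip1, an inhibitor that keeps beta-catenin off TCF, was lower in KO (-0.42, adjusted p = 8.07e-07) and RE (-0.44, adjusted p = 3.15e-07). The co-repressor genes moved apart: Tle1 was higher (0.23 and 0.32) and Tle3 was lower in KO (-0.28). No gene of this list was called between RE and KO. Tcf7l2, the main liver TCF factor, had means of 4.17, 3.75 and 3.36 FPKM and was lower in RE (-0.25, adjusted p = 0.00993).

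Only 4 of 16 secreted and feedback inhibitors could be tested; 0 were called in KO by limma (2 at an unadjusted p under 0.05), and 2 in RE, Nkd1 (-0.18) and Wif1. Wif1 passed the filter through its higher groups alone, so its call is no result and its means are given only as values, 0.0653 FPKM in WT and 0.554 in RE. Notum, a Wnt-inactivating enzyme induced by beta-catenin, had means of 13.5, 13.5 and 13.4 FPKM. Its rhythm was called in WT (0.25, peak ZT9.27) and RE (0.29, peak ZT10.4), as was that of the receptor inhibitor Kremen1 (0.21 at ZT7.75 and 0.25 at ZT6.27).

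All 8 further beta-catenin targets were tested; 5 were called in KO (2 higher, 3 lower; median -0.17) and 6 in RE (2 higher, 4 lower; median -0.27), where 42.3% (KO) and 45.9% (RE) of all genes were called. Lect2, a secreted liver protein, rose from 182 FPKM in WT to 276 in KO and 292 in RE on average (0.59 and 0.67). Sp5, a transcription factor, and Tnfrsf19, a receptor, were lower in KO (-0.47 and -0.48), and Ccnd1, cyclin D1, was lower in RE (-1.07, adjusted p = 1.16e-06). In WT, 3 of these 8 targets were called rhythmic, beside 34.8% of all genes. They were Tnfrsf19, Ccnd1 and Sp5, with peaks at ZT6.98, ZT9.32 and ZT7.18. The WT peaks called earlier were at ZT6.31 for Tbx3, ZT7.17 for Rnf43, ZT3.73 for Axin2 and ZT15.0 for Slc1a2. None of Tnfrsf19, Ccnd1 and Sp5 was called in RE. Tnfrsf19's rhythm differed between RE and WT (0.39, adjusted p = 0.0226).

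Other pericentral genes, some of which (such as Cyp1a2, Cyp2e1 and Oat) are also known beta-catenin targets, were listed for comparison. Of 14, 9 were called in KO and 9 in RE (7 higher and 2 lower in each), with medians of 0.30 and 0.23, beside 42.3% (KO) and 45.9% (RE) of all genes called in either direction. Gstm3, a glutathione transferase, was higher by 2.68 in KO and 2.39 in RE, and Cyp2a5, a cytochrome P450, was lower by 2.04 and 2.29 in log2. Their summed FPKM ranged from 4828 to 9375 in WT, 4741 to 10133 in KO and 5542 to 9570.4 in RE. Of 12 periportal genes, 6 were called in KO (3 higher, 3 lower; median 0.02) and 4 in RE (1 higher, 3 lower; median -0.11), beside the same shares of all genes.

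Genes that handle glutamine, glutamate and ammonia outside the 8 were called in both directions, 10 of 15 in KO (7 higher, 3 lower; median 0.05) and 8 in RE (5 higher, 3 lower; median 0.05), next to 42.3% (KO) and 45.9% (RE) of all genes. Slc38a3, the main hepatocyte glutamine transporter, was lower in KO (-0.60, SE 0.06) and RE (-0.74, SE 0.06). Slc1a4, a transporter of neutral amino acids, was higher in KO (1.16) and RE (1.00), and asparagine synthetase, Asns, was lower (-0.96 and -0.98).

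**Figure D5:**
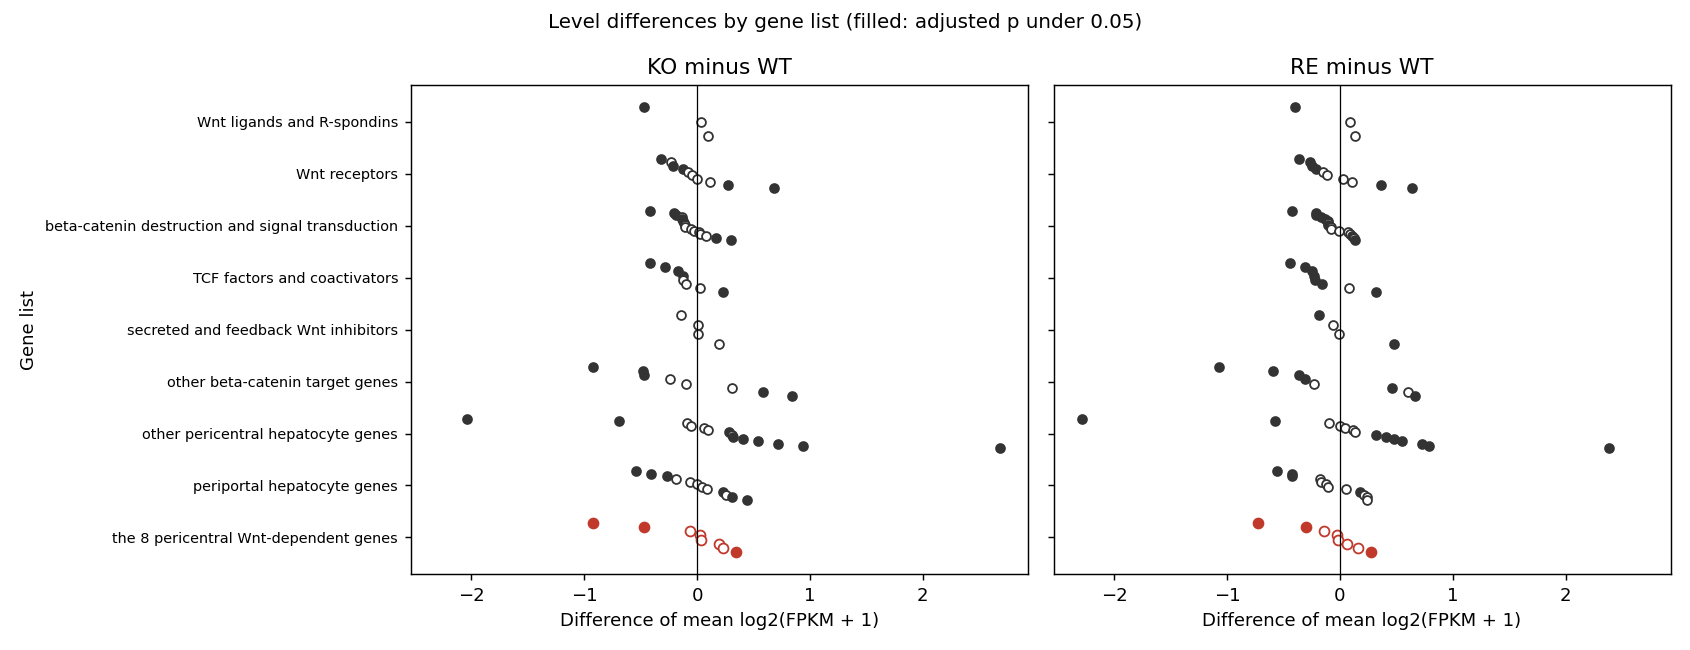
Difference of mean log2(FPKM + 1) from WT (x axis) for each tested gene of 8 lists and, at the bottom in red, of the 8 genes described here (y axis, spread within a list for legibility), in KO and RE; filled symbols have an adjusted p under 0.05. The 8 red symbols lie between -0.92 and 0.34 in KO and straddle 0, as most lists do, and Gstm3 and Cyp2a5 are the outermost symbols.

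Summed levels of markers of other cell types differed between genotypes for some types, with calls to be read beside 42.3% (KO) and 45.9% (RE) of all genes. Summed endothelial markers, the cell type that releases the Wnts, had medians of 68.1, 59.9 and 60.4 FPKM in WT, KO and RE (54.9 to 77.4, 42.0 to 79.8 and 44.8 to 78.5), and 4 of 9 tested were called in KO and 4 in RE (1 higher, 3 lower in each), near the background. Kupffer cell markers were lower for 4 of 6 genes in KO and 6 of 6 in RE (summed medians 80.1, 66.9 and 50.7 FPKM). Bile duct markers had summed medians of 27.5, 68.9 and 64.3 FPKM, with 2 of 5 called higher in each, near the background too. The median log2 difference of the 5 was -0.16 in KO and -0.12 in RE, so the sums do not stand for the whole list. Stellate cell markers had summed medians of 73.2, 78.2 and 69.9 FPKM, with 1 of 8 called in KO and 0 in RE. Gut epithelium markers had summed medians of 131, 79.8 and 91.9 FPKM, with 5 of 5 tested genes lower in KO and 3 of 5 in RE, and the highest sum (289.5) was in WT ZT0 liver 0. Summed medians were at most 1.03 FPKM for pancreas (0 of 1 tested gene called) and 18.7 for muscle and fat (1 of 2 higher in each). Lymphocyte and red cell markers had summed medians of 146, 171 and 92.9 FPKM, with 0 of 4 called in KO and 3 of 4 lower in RE (median -0.67). Hepatocyte markers without Alb had summed medians of 23576, 19115 and 22920 FPKM. Of the 6 with Alb, 4 were called in KO (1 higher, 3 lower) and 2 in RE (1 higher, 1 lower), the higher one being Alb, listed at 0 throughout WT. Alb passed the filter through KO and RE groups alone, so its calls are no result. The part of these shifts in the level differences was not tested.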

How the data were processed

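RNA from whole mouse liver was sequenced in 54 libraries, 3 in each of 18 groups. The deposited table holds FPKM, aligned by the authors to mm10 with TopHat per the submitters' processing notes; its version and the quantification step are not stated in these sources. FPKM was already scaled by the authors; low values were not whole multiples of a read's worth, so depth is unknown and precision rests on the spread between livers. Columns were assigned by the genotype and time in their names; livers carry the column number (0, 1 or 2), which is not the number (1 to 3) in the sample titles. No 2 libraries were copies (highest Pearson r 0.997, at most 0.0140% of nonzero values identical).

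Genes averaging 1 FPKM or more in any group were tested (13414 left out). log2(FPKM + 1), with a pseudocount of 1, was fitted with limma 3.58.1 in R 4.3.3: 18 group means, eBayes with trend, 36 residual degrees of freedom, Benjamini-Hochberg adjustment over 10932 genes, calls at an adjusted p under 0.05. Levels are means over 6 times, tested two-sided. Rhythms are the cosine and sine contrasts over 24 h (moderated F). The script recovered known changes in simulated data. Promoter windows came from RefSeq GRCm38.p6.

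The 8 genes and all lists were chosen with earlier results of these data known. All 8 are named, with up to 3 genes per list and comparison by smallest adjusted p, and 6 Wnt genes (Wnt2, Wnt9b, Rspo3, Lgr4, Ctnnb1 and Tcf7l2) at any p; Nr1d1 and Apoa1 were added as checks. Alternatives were another pseudocount, other filters, median centring, quantile normalization, no trend, fits on the compared genotypes alone and leaving out each liver.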

Additional observations from a re-analysis of the deposited data

Results flagged for a closer look

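The results below are calls of a difference between 2 genotypes' 24 h rhythms. They cover only the genes described here, the Wnt pathway lists and the other pericentral genes. The groups of 3 livers are too small to be searched for single outlying livers. Each value is the length of the difference between the fitted waves, in log2, with limma's adjusted p. Calls in the remaining lists are not itemised, so the items do not show where altered rhythms are most frequent. Between RE and WT, 5 of 12 periportal genes were called, beside 3 of 14 other pericentral genes and 14.1% of all genes. Of genes that handle glutamine, glutamate and ammonia, 6 of 15 were called between RE and WT and 4 between KO and WT.

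Among the 8 genes only Rhbg was called, for RE minus WT (0.769, adjusted p = 0.00542).

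Of 49 tested genes in the 6 Wnt pathway lists, 6 were called between KO and WT (12.2%, beside 9.06% of all genes). Between RE and WT 8 of the 49 were called (16.3% beside 14.1%), and between RE and KO 1 (2.04% beside 3.07%). These shares were near those of all genes. The ligand gene Wnt5b differed from WT in KO (0.502, limma adjusted p = 0.0341) and in RE (0.725, adjusted p = 0.000766). The co-receptor gene Lrp5 differed in KO (0.520, adjusted p = 6.94e-05) and RE (0.560, adjusted p = 1.81e-05). Among Frizzled genes, Fzd4 differed in RE (0.523, adjusted p = 0.0150), and Fzd7 (0.593, adjusted p = 0.0157) and Fzd8 (0.576, adjusted p = 0.0437) differed in KO. Ctnnbip1, whose product holds beta-catenin away from TCF factors, differed in KO (0.404, adjusted p = 0.00716) and RE (0.496, adjusted p = 0.000517), and Tcf7 in RE (0.281, adjusted p = 0.0148). Dvl2 differed in KO (0.333, adjusted p = 0.0225) and RE (0.344, adjusted p = 0.0131). The kinase gene Csnk1d differed between RE and WT (0.223, adjusted p = 0.00284) and between RE and KO (0.203, adjusted p = 0.0275), and Tnfrsf19 between RE and WT (0.394, adjusted p = 0.0226).

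Among other pericentral genes, Cyp2a5 differed from WT in KO (1.45, adjusted p = 0.000305) and RE (1.89, adjusted p = 3.31e-06), and Cyp7a1, which starts bile acid synthesis, in KO (1.37, adjusted p = 0.0106). Cyp2e1 differed between KO and WT (0.478, adjusted p = 0.0225) and between RE and KO (0.583, adjusted p = 0.0196), and Nr1i3, a xenobiotic receptor, likewise (0.661, adjusted p = 0.0196, and 0.643, adjusted p = 0.0490). Oat (0.664, adjusted p = 0.0237) and Slc13a3 (0.683, adjusted p = 0.0129) differed between RE and WT, Cldn2 between KO and WT (0.429, adjusted p = 0.0331), and Gstm3 between RE and KO (0.793, adjusted p = 0.0245).

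Several of these calls ended when 1 liver was left out: that of Nr1i3 between RE and KO for 39 of the 54 livers, Fzd8 for 19, Wnt5b in KO and Cldn2 for 10 each, Nr1i3 in KO for 4, Dvl2 in KO for 3, and Cyp2e1 in KO, Tnfrsf19, Oat, Gstm3 and Csnk1d between RE and KO for 2 each.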

How the results depend on the processing

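Over 7 alternatives the 8 genes gave 636 values; 611 kept their direction and side of the threshold, 10 lost a call, 15 gained one and 0 called levels changed sign. The level calls of Slc1a2, Axin2 and Glul in KO, and of Slc1a2 and Axin2 in RE, held in each fit that tested the gene. Of 20 calls on the 8 genes, 9 held without any 1 liver. Of the 8, the rhythm calls in WT numbered 4 and became 2 without a filter; those in RE numbered 4 and became 2 with a filter at 5 FPKM, which leaves Axin2, Lgr5 and Znrf3 untested. The rhythm difference RE minus WT rose from 1 to 2 with the genotypes compared alone, where Axin2 joined Rhbg (limma adjusted p = 0.0329). Calls of any change in WT rose from 1 to 2 (pseudocount 0.1 and filter at 5 FPKM) and 6 (genotypes alone); in RE they fell from 4 to 1 (no filter), 2 (5 FPKM) and 0 (genotypes alone). Leaving out each liver gave 2 to 5 rhythm calls in WT, 0 to 1 rhythm differences KO minus WT, 1 to 2 RE minus WT, and 0 to 2 (WT) and 2 to 4 (RE) calls of any change. Without a filter Glul RE minus WT was not called (adjusted p = 0.0678); with the genotypes alone Glul was called rhythmic in WT (adjusted p = 0.00204). The cause of these changes was not tested.

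Over all genes, counts that moved by more than 1.5 times were: level RE minus KO 21, 0 with the genotypes alone and 13 to 172 without 1 liver; rhythm in KO 4, 1 and 0 to 161; rhythm in RE 5116 and 3107 alone, while that in WT went from 3801 to 5289; rhythm difference RE minus KO 336, 2 alone, 120 without a filter and 145 to 687; any change in WT 2573 and 4396; any change in RE 4298 and 1161; any change in KO 5, between 0 and 17. No paired analysis was possible because the table's columns carry the numbers 0 to 2 and the titles 1 to 3, so no column could be tied to a numbered sample. Genes near 1 FPKM (Axin2, Lgr5 and Znrf3) are limited by the unknown depth.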
